A study of Homo sapiens with 45 samples.

Results

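The cancer-testis antigen genes described here were the protein-coding genes of the MAGEA, MAGEB, MAGEC, GAGE, XAGE, PAGE, SSX and CTAG families, together with PRAME and FATE1. They were chosen by symbol, with pseudogenes left out, and the rule found 69 of the 41582 genes in the tables. The 12 GAGE symbols were summed, as were SSX2 with SSX2B and SSX4 with SSX4B, because reads cannot be assigned reliably between such near-identical copies. This left 56 genes or summed copies, of which 7 (SSX2IP and 6 CTAGE genes) matched the letters of the rule without belonging to the families. The other 49 are the subject of the counts given for each line. RNA had been measured in 45 poly(A) libraries of human cell lines, with 3 libraries in every group. Of the 13 lines, 7 were from Ewing sarcoma (TC71, SKES1, RDES, MHHES1, EW3, EW24 and A673) and 6 from osteosarcoma (U2OS, SAOS2, MG63, KHOS, HOS-MNNG and G292), and the labels name no agent for them. A further 6 libraries came from A673 cells with sh908, a hairpin directed against the potassium channel gene KCNN1, with doxycycline not added in 3 and added in 3. Each tumour type was therefore represented by established lines grown in culture, each hairpin group by 1 derivative of 1 line, and the labels do not say that the 3 libraries of a group came from separate cultures, so p-values from libraries measure a spread that may be technical.

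Cancer-testis antigen genes are normally transcribed in male germ cells and in placenta and are silent in most other adult tissues. Most lie on the X chromosome in clusters of recent duplicates, and their silence in somatic cells depends largely on methylation of CG dinucleotides at the promoter. In tumours some of them are transcribed again, and the peptides they give rise to can be recognised by T cells, which is why MAGEA, CTAG and PRAME products have been used as targets of immunotherapy. Ewing sarcoma is driven by a fusion protein, most often EWS::FLI1, and osteosarcoma is a bone-forming tumour with no such fusion.

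Total estimated counts per library were 23132161 to 51413254 for the Ewing sarcoma lines, 15974173 to 44911542 in the osteosarcoma lines and 16619617 to 24818664 in the sh908 groups. KCNN1, the hairpin's target, stood at 32, 38.9 and 37.2 TPM (transcript abundance scaled for length and depth) in parental A673. It was at 37.8, 35.3 and 18 TPM in sh908 cells without doxycycline and at 10.2, 13.7 and 7.75 TPM with it. Replicate 3 of both sh908 groups stood apart from the others across genes, which touches every sh908 value below. The edgeR test described below called 14.4% of all genes. It called 4 of 6 Ewing sarcoma markers higher in the Ewing sarcoma lines (NR0B1, NKX2-2, STEAP1 and BCL11B). Of 5 tested osteoblast markers, 3 were called lower there (RUNX2, COL1A1 and SPP1). The permutation test, also below, called PAX7 in place of NR0B1, and of 6 osteoblast markers only COL1A1. Line medians of ALPL (36.1 against 4.37 TPM) and BGLAP (0.916 against 0.430 TPM) were higher in Ewing sarcoma, and neither test called them. SP7 was at 22.1 TPM in SAOS2 and at most 0.168 TPM in any other line. IBSP stayed at or below 0.367 TPM in every line. Of 8 germ cell markers, TNP1, PRM1 and PRM2 were at 0 in every line, and the summed level of all 8 ranged from 0.253 to 2.21 TPM in the Ewing sarcoma lines and from 0.221 to 1.14 TPM in the osteosarcoma lines. In bulk RNA of this kind, fewer cells that transcribe a gene and less RNA per cell cannot be told apart.

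With a mean of at least 1 TPM taken as detected, 35 of the 49 were detected in some line and 14 in none, counting each copy of a near-identical pair by its deposited estimate. PRAME alone was detected in all 13 lines, 7 were detected in 4 to 12 lines, 14 in 2 or 3 lines and 13 in a single line. The lines fell far apart. U2OS held 23 of the 49 and SAOS2 18, SKES1 held 15, EW3 9, MHHES1 and RDES 8 each, EW24 and TC71 5 each, and A673 4. HOS-MNNG held 2, and G292, KHOS and MG63 held 1 each, which was PRAME. At 10 TPM or more the counts were 16 in U2OS, 13 in SAOS2, 8 in SKES1 and 5 in EW3. In all, 27 were detected in an osteosarcoma line and 19 in an Ewing sarcoma line. Of the 27, only PRAME and MAGEB2 reached 1 TPM in an osteosarcoma line other than U2OS and SAOS2. The 14 below 1 TPM as estimated gene by gene were CTAG1B, MAGEA9, MAGEC3, XAGE3, PAGE3, PAGE4, PAGE5 and the MAGEB genes 3, 4, 5, 6, 6B, 16 and 18. PAGE5 was highest in SAOS2, at 1.05, 0.355 and 0.928 TPM, and MAGEB5 and PAGE3 had no count in any library. CTAG1B and MAGEA9 are near-identical to CTAG1A and MAGEA9B, and the sum of each pair was detected in SAOS2. With these and 4 other such pairs summed, 31 of 43 were detected, 19 in U2OS, 15 in SAOS2 and 12 in SKES1.

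**Figure D1:**
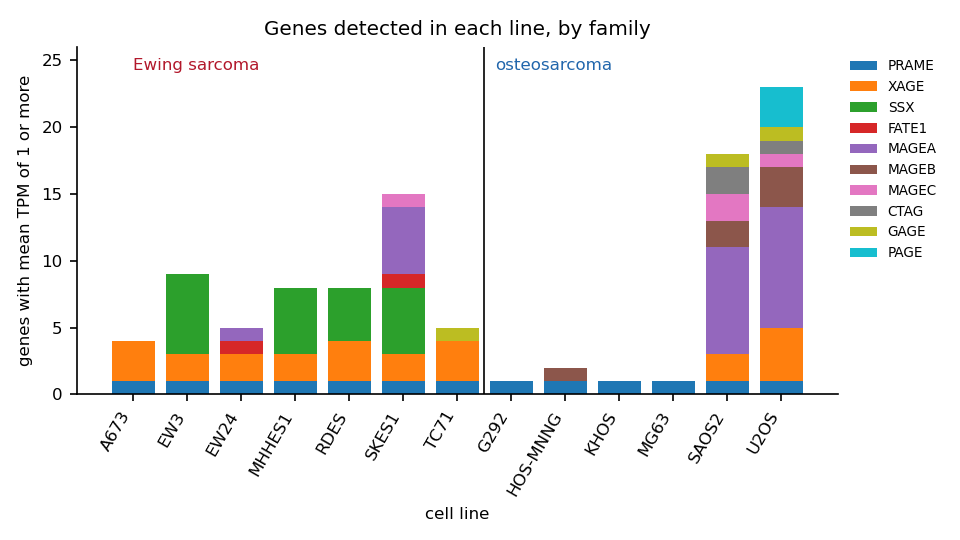
Number of the 49 genes or summed copies with a mean of at least 1 TPM in each line (bars, coloured by family; the y axis starts at 0; 3 libraries per line). U2OS reaches 23 and SAOS2 18, mostly MAGE genes, while SSX genes (green) appear only in Ewing sarcoma lines and 3 osteosarcoma lines hold PRAME alone.

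The families were distributed differently. XAGE1 was high in all 7 Ewing sarcoma lines and in U2OS and SAOS2. The SSX genes were detected only in Ewing sarcoma lines, and a block of MAGEA genes only in SKES1, SAOS2 and U2OS. The PAGE2 copies, GAGE genes, MAGEA4 and MAGEC1 reached 10 TPM only in U2OS, and CTAG2 and MAGEC2 only in SAOS2. Of the 35 detected, 16 had their highest level in U2OS, 10 in SAOS2 and 6 in EW3, and the 6 of EW3 were the 6 SSX genes or copy sums. Without PRAME and XAGE1, the summed level of the 49 was 1754 TPM in U2OS, 1376 TPM in SAOS2 and 185 TPM in SKES1, against 52.8 TPM in EW3 and 0.442 TPM in KHOS.

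**Figure D2:**
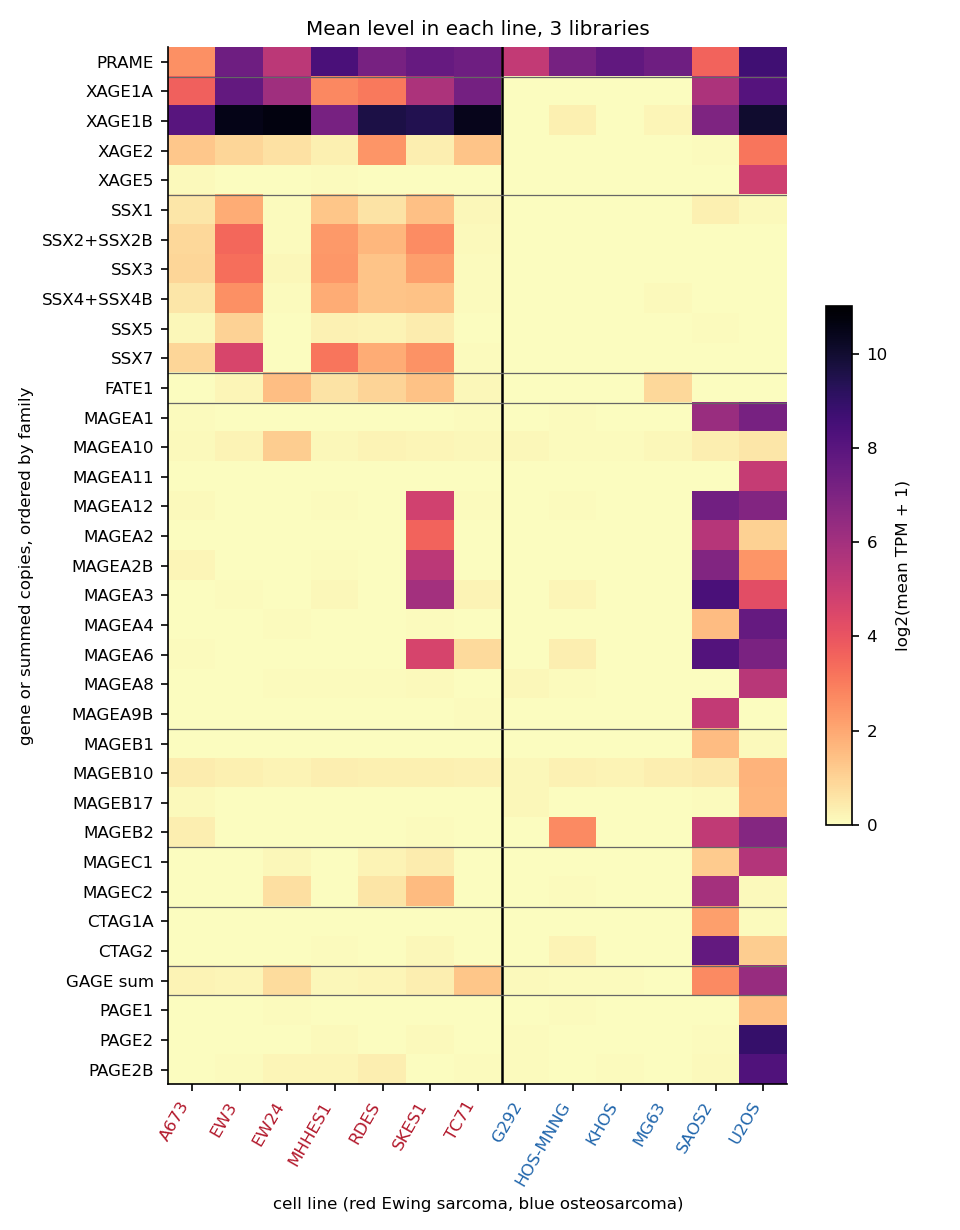
Mean level of the 35 detected genes or summed copies (rows, ordered by family) in the 13 lines (columns, red Ewing sarcoma, blue osteosarcoma), as log2(mean TPM + 1) on a colour scale from 0 (pale) to 11 (black), 3 libraries per line. XAGE1B is dark in all Ewing sarcoma lines and in SAOS2 and U2OS, and MAGEA3, MAGEA6 and MAGEA12 are coloured in SKES1, SAOS2 and U2OS only.

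XAGE1, a small antigen long known from Ewing sarcoma, is encoded by a pair of near-identical genes, XAGE1A and XAGE1B, on chromosome X. The first RefSeq start windows listed for the pair (GRCh38.p14; 250 bases before to 50 after the annotated start) were identical in all 300 bases, although they lie on opposite strands, so levels are given for the sum of both genes. The window of XAGE1B, at chrX:52516963-52517262 on the minus strand, is shown because it belongs to the most abundant transcript of all members, with its 17 CG dinucleotides in capitals.
XAGE1B: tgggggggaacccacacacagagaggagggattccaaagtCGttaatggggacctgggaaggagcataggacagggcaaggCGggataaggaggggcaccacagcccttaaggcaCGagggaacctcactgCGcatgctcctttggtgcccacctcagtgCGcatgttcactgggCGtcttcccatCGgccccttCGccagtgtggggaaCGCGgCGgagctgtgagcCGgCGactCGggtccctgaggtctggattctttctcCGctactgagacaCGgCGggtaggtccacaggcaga

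Summed XAGE1 stood at 1523, 1836 and 1681 TPM in EW24, at 1733, 1495 and 1763 TPM in EW3 and at 1522, 1368 and 1730 TPM in TC71. These 3 lines had the highest means of all, and their libraries overlapped. RDES (768, 871 and 720 TPM) and SKES1 (704, 821 and 708 TPM) followed and did not differ beyond their spread. A673 held 320, 249 and 249 TPM and MHHES1 167, 125 and 153 TPM, the lowest of the Ewing sarcoma lines. Among the osteosarcoma lines, U2OS held 1214, 1345 and 1371 TPM, with a mean between those of TC71 and RDES and libraries that overlapped those of TC71. SAOS2 held 151, 195 and 190 TPM, which overlapped MHHES1. G292 and KHOS were listed at 0 in every library, and the highest single value was 0.533 TPM in HOS-MNNG and 0.399 TPM in MG63. The osteosarcoma lines thus spanned the range from 0 to almost the level of the highest Ewing sarcoma lines, and the tumour types overlapped. A single transcript, NM_001097604.3, carried 94.6% ± 0.761 (SD, n = 3) of XAGE1B in EW3 and 89.8% ± 1.0 in U2OS. How the deposited estimates split XAGE1A from XAGE1B is uncertain, and XAGE1A taken alone varied more between libraries of a line (0.810, 0.602 and 15.5 TPM in MHHES1).

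PRAME, a leucine-rich repeat protein that serves as a substrate receptor of a ubiquitin ligase and represses retinoic acid receptor signalling, is the one family gene on chromosome 22. Its RefSeq window at chr22:22559216-22559515 on the minus strand is shown as that of the only cancer-testis member detected in every line. It holds 13 CG dinucleotides, in capitals.
PRAME: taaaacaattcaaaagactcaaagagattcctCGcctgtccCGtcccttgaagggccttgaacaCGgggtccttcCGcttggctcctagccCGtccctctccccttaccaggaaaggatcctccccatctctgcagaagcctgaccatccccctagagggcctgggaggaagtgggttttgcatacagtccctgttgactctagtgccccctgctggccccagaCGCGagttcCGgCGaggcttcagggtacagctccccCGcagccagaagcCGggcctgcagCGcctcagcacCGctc

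PRAME was highest in U2OS (406, 418 and 386 TPM) and MHHES1 (346, 325 and 332 TPM). KHOS followed at 214, 212 and 211 TPM and SKES1 at 200, 197 and 194 TPM. EW3, TC71 and MG63 had means of 171, 171 and 170 TPM and did not differ beyond their spread, nor did HOS-MNNG (145 ± 15 TPM, SD, n = 3) and RDES (141 ± 6.94 TPM). EW24 (39.2, 36.8 and 43.9 TPM) and G292 (37.8, 31.8 and 35.1 TPM) were lower and overlapped. SAOS2 held 9.94, 12.4 and 11.3 TPM, although it was the line with the next most members after U2OS, and A673 was lowest at 5.52, 4.40 and 4.83 TPM. Each tumour type therefore had lines at both ends of the range, from 4.92 to 334 TPM over the Ewing sarcoma lines and from 11.2 to 403 TPM over the osteosarcoma lines.

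**Figure D3:**
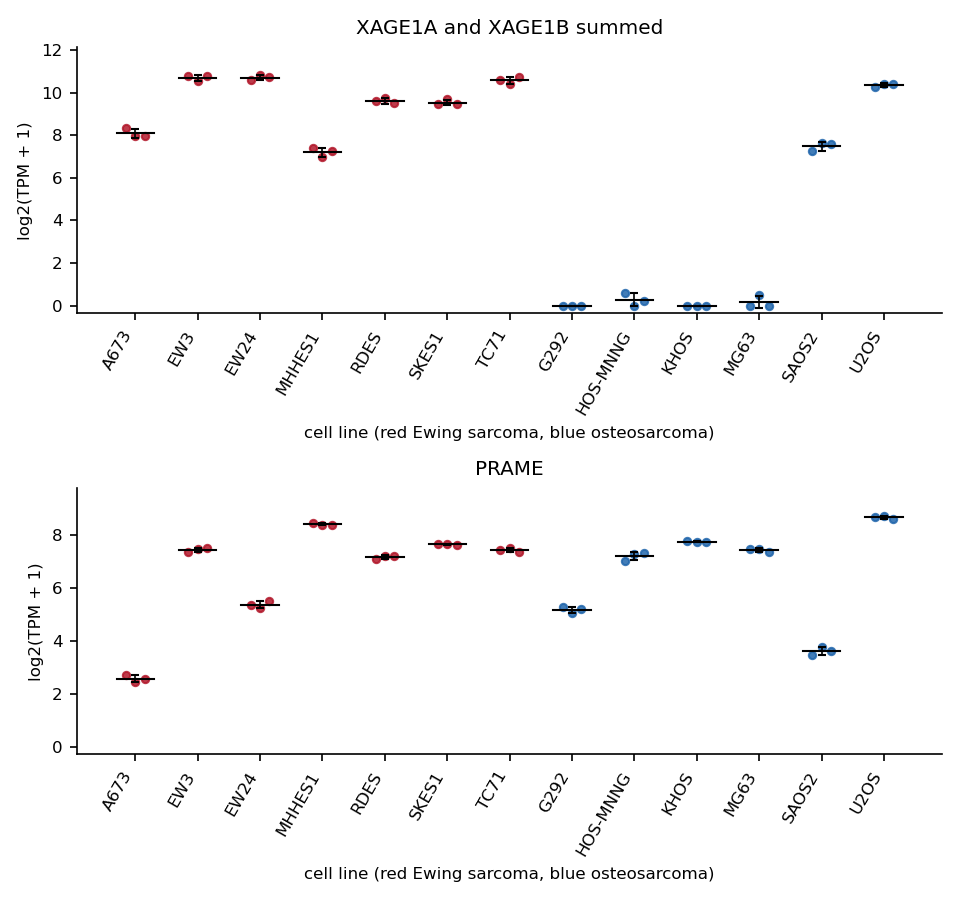
Level of summed XAGE1A and XAGE1B (top) and of PRAME (bottom) in each line as log2(TPM + 1); points are the 3 libraries of a line, lines are their mean and error bars their SD. XAGE1 is near 0 in G292, HOS-MNNG, KHOS and MG63 only, and PRAME is lowest in A673 and SAOS2.

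The SSX genes encode nuclear repressors that associate with Polycomb-bound chromatin, and SSX1, SSX2 and SSX4 are the partners of SS18 in the fusions of synovial sarcoma. Of these, SSX5, SSX1, SSX3 and the SSX4 copies lie in 1 stretch of chromosome X and SSX7 and the SSX2 copies in another, which starts at position 52369021, ends at 52868083 and also holds the 5 XAGE genes. The windows of SSX1 (chrX:48255142-48255441, plus strand) and SSX7 (chrX:52654851-52655150, minus strand) are shown as 1 of each stretch, from genes that were highest in the same line. They hold 5 and 6 CG dinucleotides, in capitals, against 17 at XAGE1B.
SSX1: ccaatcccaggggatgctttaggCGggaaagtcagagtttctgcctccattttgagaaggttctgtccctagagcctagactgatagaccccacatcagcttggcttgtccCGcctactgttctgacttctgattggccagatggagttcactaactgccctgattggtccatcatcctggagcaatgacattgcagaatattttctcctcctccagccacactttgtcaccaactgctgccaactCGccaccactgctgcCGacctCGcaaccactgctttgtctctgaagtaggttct
SSX7: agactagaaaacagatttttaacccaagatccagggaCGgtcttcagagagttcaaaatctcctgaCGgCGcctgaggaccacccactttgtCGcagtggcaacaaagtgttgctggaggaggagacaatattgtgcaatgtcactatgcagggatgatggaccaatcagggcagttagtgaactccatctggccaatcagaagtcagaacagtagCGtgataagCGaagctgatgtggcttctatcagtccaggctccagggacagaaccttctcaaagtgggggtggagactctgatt

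All 6 SSX genes or copy sums were highest in EW3. SSX7, the most abundant, stood there at 27.2, 20.8 and 20.3 TPM, in MHHES1 at 8.44, 6.05 and 9.50 TPM, in SKES1 at 4.35, 5.26 and 4.54 TPM, in RDES at 2.78, 3.0 and 2.56 TPM and in A673 at 1.41, 0.469 and 0.791 TPM. It was listed at 0 in EW24 and in all 6 osteosarcoma lines and had a mean of 0.0492 TPM in TC71. SSX3 was at 12.5, 6.06 and 8.79 TPM in EW3 and had means of 4.17 TPM in MHHES1, 3.59 in SKES1, 1.54 in RDES and 0.882 in A673. The same 5 lines led for the SSX2 copies (means of 10.2, 4.12, 5.26, 2.16 and 0.860 TPM in EW3, MHHES1, SKES1, RDES and A673) and for the SSX4 copies (4.83, 2.72, 1.66, 1.55 and 0.444 TPM). SSX1 was at 3.97, 2.26 and 2.08 TPM in EW3, 1.63, 1.53 and 1.26 TPM in MHHES1 and 1.77, 2.02 and 1.46 TPM in SKES1. SSX5 reached a mean of only 1.03 ± 0.601 TPM (SD, n = 3), in EW3. EW24 and TC71, which were among the 3 highest lines for XAGE1, held no SSX gene at 0.2 TPM or more, although SSX7 and the SSX2 copies lie in the same 499.1 kb stretch as XAGE1A and XAGE1B.

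**Figure D4:**
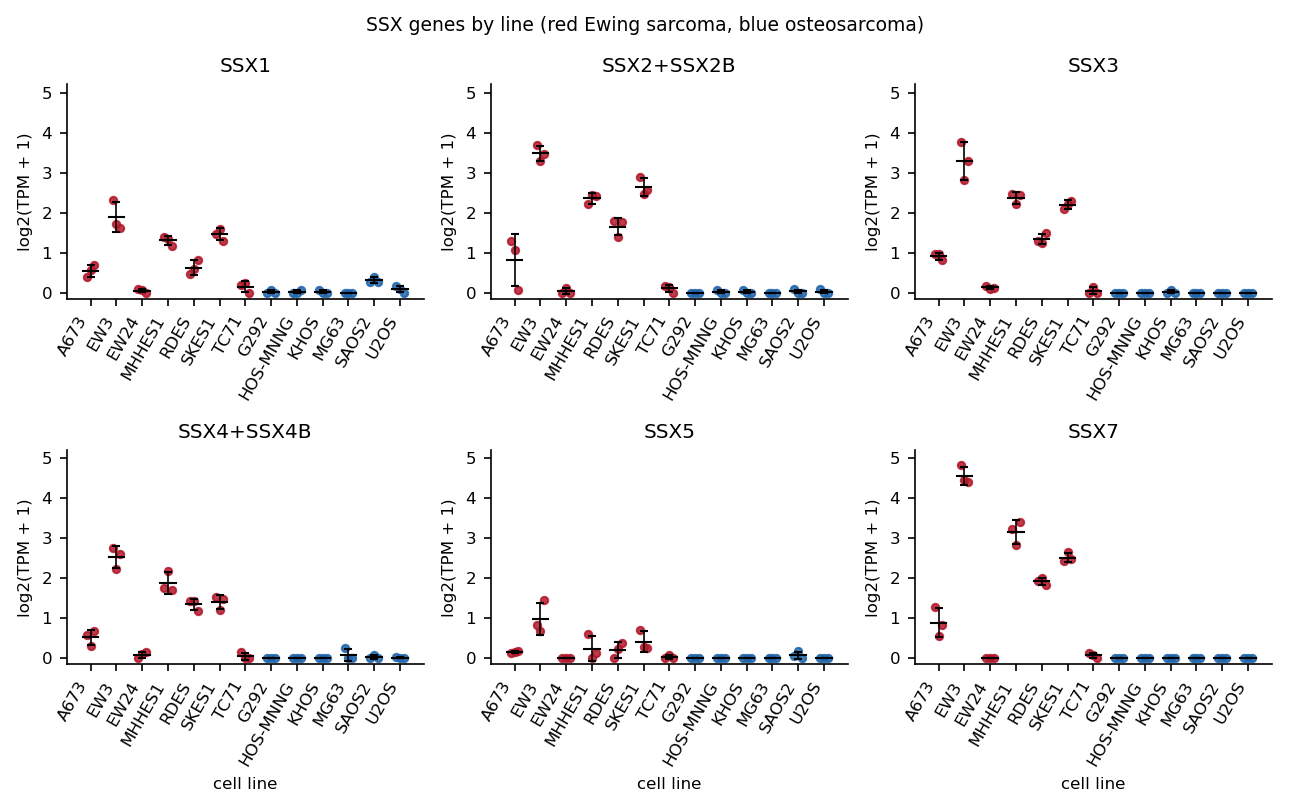
Level of 6 SSX genes or copy sums in each line (1 panel each) as log2(TPM + 1) on a common y axis; points are the 3 libraries of a line, lines are their mean and error bars their SD, red Ewing sarcoma and blue osteosarcoma. EW3 is highest in every panel, MHHES1, SKES1 and RDES lie between it and the rest in the panels of SSX7, SSX3 and the SSX2 copies, and the osteosarcoma lines lie at or near 0.

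The MAGEA genes encode adaptors that bind RING-type ubiquitin ligases and alter what these degrade. MAGEA3, MAGEA2B, MAGEA12, MAGEA2 and MAGEA6 lie within 70.9 kb, from position 152698794 to 152769689 of chromosome X, and only SKES1, SAOS2 and U2OS held them at 1 TPM or more. MAGEA3 and MAGEA6 had identical 300-base windows (MAGEA3 at chrX:152698544-152698843 on the plus strand, MAGEA6 on the minus strand), as did MAGEA2 and MAGEA2B and also MAGEA9 and MAGEA9B, so each pair is summed. The MAGEA3 window is shown as that of the most abundant pair, with 19 CG dinucleotides in capitals.
MAGEA3: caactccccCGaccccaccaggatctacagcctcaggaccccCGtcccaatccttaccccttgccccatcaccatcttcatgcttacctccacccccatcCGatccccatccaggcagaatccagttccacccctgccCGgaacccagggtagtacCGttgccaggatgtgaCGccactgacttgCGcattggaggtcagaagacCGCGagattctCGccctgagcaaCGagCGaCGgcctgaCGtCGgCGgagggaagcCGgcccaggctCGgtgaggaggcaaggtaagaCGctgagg

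Summed MAGEA3 and MAGEA6 stood at 622, 610 and 631 TPM in SAOS2, 148, 159 and 145 TPM in U2OS and 78.0, 98.0 and 79.7 TPM in SKES1. In the other 10 lines the highest mean was 0.990 TPM, in TC71. The summed MAGEA2 copies were at 162, 155 and 166 TPM in SAOS2 and 48.4, 54.0 and 49.4 TPM in SKES1 but only at 4.94, 6.61 and 4.90 TPM in U2OS. MAGEA12 was at 159 ± 5.45 TPM in SAOS2, 115 ± 2.34 TPM in U2OS and 26.5 ± 2.14 TPM in SKES1 (SD, n = 3 each). The block was therefore shared by 3 lines, but U2OS held less of the MAGEA2 copies than SKES1 and more of MAGEA12. MAGEA1 was at 141, 153 and 135 TPM in U2OS and 77.1, 76.8 and 72.8 TPM in SAOS2 and at 0 in SKES1. MAGEA4, the target of an approved T cell therapy in synovial sarcoma, was at 210, 210 and 195 TPM in U2OS, at 1.93, 1.69 and 1.89 TPM in SAOS2 and below 1 TPM elsewhere. MAGEA8 (42.7 ± 2.56 TPM) and MAGEA11 (32.8 ± 1.37 TPM), the latter a coregulator of the androgen receptor, were detected in U2OS alone, and the summed MAGEA9 copies in SAOS2 alone, at 35.5 ± 1.41 TPM. MAGEA10 reached 1 TPM only in EW24, at 1.42, 1.26 and 0.934 TPM.

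Of the other MAGE genes, MAGEB2 was at 110, 115 and 105 TPM in U2OS, 31.9, 39 and 39.4 TPM in SAOS2 and 5.74, 5.4 and 5.07 TPM in HOS-MNNG. MAGEB1, MAGEB10 and MAGEB17 reached at most 2.36 TPM, the last pair in U2OS and MAGEB1 in SAOS2. MAGEC1 was at 50.6, 48.1 and 39.8 TPM in U2OS and 1.25 ± 0.181 TPM in SAOS2. Its neighbour MAGEC2, a partner of the ligase TRIM28, was at 53.4, 58.8 and 69.4 TPM in SAOS2, 2.11, 1.5 and 2.26 TPM in SKES1 and below 0.1 TPM in U2OS. U2OS was thus the highest line for MAGEC1 and SAOS2 for MAGEC2.

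The CTAG genes encode short antigens that have been targeted in sarcoma trials. CTAG2 was at 201, 215 and 214 TPM in SAOS2 and 1.09, 1.02 and 1.48 TPM in U2OS. The sum of CTAG1A and CTAG1B, whose reads cannot be told apart, was at 2.64, 4.35 and 3.72 TPM in SAOS2 and at most 0.110 TPM on average elsewhere, with CTAG1B itself below 1 TPM in every line. The GAGE genes encode small, disordered, acidic proteins, and their sum was at 70.2, 68.6 and 90.6 TPM in U2OS, 5.39 ± 0.453 TPM in SAOS2 and 1.47 ± 0.126 TPM in TC71. PAGE2 and PAGE2B belong to the same superfamily, and their sum was at 720, 784 and 840 TPM in U2OS and at most 0.271 TPM on average in any other line. XAGE5 was likewise detected in U2OS alone (24.9, 27.4 and 31.2 TPM). XAGE2 was at 7.13, 8.02 and 8.39 TPM in U2OS and 3.92, 3.43 and 6.03 TPM in RDES, and in A673 and TC71 its means were 1.38 and 1.59 TPM. FATE1, a protein of the mitochondrial outer membrane, stayed low. It was highest in EW24 (1.77, 1.88 and 1.69 TPM), followed by SKES1 (0.883, 2.60 and 1.43 TPM), RDES (0.953, 1.11 and 0.745 TPM) and MG63 (1.02, 0.654 and 0.820 TPM).

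Over the whole set, 62 of the 69 symbols had a RefSeq window, 80 windows in all, and these were searched on both strands. CG was present in 100% of them, against 96.0% of all 35116 windows of that length, with a median of 13 and 14 per window. GGAA, the core that ETS factors bind, was in 98.8% of member windows and 95.5% of all windows, CGGAAG, which contains it, in 13.8% and 19.5%, and the tandem GGAAGGAA in 5.00% and 3.67%. The XAGE1B window held GGAA 6 times and the SSX7 window 0 times. By these counts the member windows were close to those of other genes. They include the windows of SSX2IP and the CTAGE genes, and near-identical copies, such as most of the GAGE genes, were each counted on their own.

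The first comparison asked whether member levels differed between Ewing sarcoma and osteosarcoma, with the 13 lines as samples. On line sums, edgeR's quasi-likelihood test with Benjamini-Hochberg adjustment over all genes called 3159 of 22000 genes at a false discovery rate (FDR) under 0.05, which is 14.4%. Only 10 members passed the filter on low counts, which removes genes high in few lines, and 2 of the 10 were called. SSX1 was 3.95 higher on the log2 scale in the Ewing sarcoma lines (SE 1.0, FDR 0.0196), where its line means ran from 0.0365 to 2.77 TPM with a median of 0.548, against 0 to 0.241 TPM with a median of 0.0166 in osteosarcoma. SSX2IP, which encodes a centrosomal partner of SSX2 and is no cancer-testis antigen, was 0.94 lower (log2 fold change -0.94, SE 0.29, FDR 0.0483), at 15.4 to 33.3 TPM in Ewing sarcoma and 22.5 to 81.1 TPM in osteosarcoma. SSX1 passed the filter through the Ewing sarcoma lines, with 373 counts against 17.6 in osteosarcoma, so its call here is a description. The line means of the tumour types overlapped for both genes. The median log2 fold change was 0.35 over the 10 members and -0.06 over all genes tested. When A673, EW3, MHHES1, RDES or SKES1 was left out, SSX1 no longer passed the filter and no member was called, and without replicate 2 or replicate 3 of every line the count was likewise 0. No call on members in this fit held in every alternative.

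XAGE1 and PRAME were not called. Summed XAGE1 was 2.02 higher in Ewing sarcoma on the log2 scale (SE 1.79, FDR 0.491), with line means of 148 to 1680 TPM (median 786) against 0 to 1310 TPM (median 0.185). The PRAME difference was -0.26 on the log2 scale (SE 0.79, FDR 0.863), and the median line means were 171 and 157 TPM. With SAOS2 and U2OS left out, an alternative chosen after the data were seen, 2998 of 22810 genes were called (13.1%) and 9 of the 15 members that were tested. The 9 were XAGE1A, XAGE1B, XAGE2, SSX1, SSX3, SSX7 and the SSX2 and SSX4 copies, higher in Ewing sarcoma, and SSX2IP, lower. SAOS2 and U2OS were left out for their member levels, which fixed the outcome for the XAGE genes, and members newly tested passed the filter through the Ewing sarcoma lines, so these counts are a description and no test. With no filter on low counts, 3908 of 37191 genes were called (10.5%) and 15 of 54 members. This fit does not choose members by level. The 6 called higher were SSX1, SSX3, SSX5, SSX7 and the SSX2 and SSX4 copies, and the 9 called lower in Ewing sarcoma were MAGEA1, MAGEA4, MAGEA8, MAGEA9B, MAGEB2, CTAG2, PAGE2, PAGE2B and XAGE5, each with nearly all of its counts in U2OS, SAOS2 or both.

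The SSX genes had almost no counts in osteosarcoma. SSX7 had 2265 counts over the Ewing sarcoma libraries and 0 over the osteosarcoma libraries, at least 630-fold higher relative to library totals against a floor of 3 counts over the group. SSX3 had 1038 and 1 counts, a ratio of 865 with an exact 95% interval of 155 to 34206, and the SSX4 copies 552 and 3.12 counts, a ratio of 148 (52.5 to 744). These intervals cover counting error only, as these reads carry no molecular identifiers, and not the spread between lines, which ran from 0 to 22.8 TPM for SSX7 within Ewing sarcoma.

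A 2-sided exact permutation test of the mean log2(TPM + 1) of the lines, over 1716 splits, was made for every gene of at least 1 TPM in a line. It called 2657 of 22052 genes (12%) and 3 of the 38 members tested, all higher in Ewing sarcoma. The difference was 6.49 for XAGE1B, 1.58 for the SSX2 copies and 1.47 for SSX3, each with an exact p = 0.00524 and an adjusted p of 0.0456, close to the threshold. The SSX2 copies and SSX3 entered the test only through the Ewing sarcoma lines, where they were high, so their calls are a description, and with every gene of a TPM above 0 tested 0 members were called. With XAGE1A and XAGE1B summed, since their split is uncertain, the difference was 6.44 and was not called (permutation p = 0.00874, adjusted p = 0.0610), and XAGE1A alone had a difference of 2.88 (adjusted p = 0.269). Line means of the SSX2 copies and of SSX3 did not overlap between the tumour types, the lowest in Ewing sarcoma being 0.0304 TPM in EW24 and 0.0351 TPM in TC71 and the highest in osteosarcoma 0.0199 and 0.0145 TPM. Those of XAGE1B did overlap, at 143 to 1614 and 0 to 1037 TPM. SSX1 missed the threshold in the permutation test (difference 0.79, p = 0.0169, adjusted p = 0.0897), as did SSX7 (difference 1.88, p = 0.0251, adjusted p = 0.113). The median difference was -0.48 over the 38 members and 0.03 over all genes. Without SAOS2 and U2OS the permutation test called 1608 of 20625 genes (7.80%) and 1 of 23 members, XAGE1B, which restates the choice of lines, since the 2 left out were the osteosarcoma lines with XAGE1. The count of members called fell to 0 when any of G292, HOS-MNNG, KHOS, MG63 or SAOS2 was left out, where 8.17% to 10.7% of all genes were called, and rose to 6 without EW24, where 8.95% were.

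HOS-MNNG and KHOS both derive from the HOS line, and their comparison, 3 libraries against 3, asked how far 2 derivatives of 1 tumour share their members. The edgeR test called 9521 of 17440 genes (54.6%) and 2 of the 3 members tested. MAGEB2 was at 5.74, 5.4 and 5.07 TPM in HOS-MNNG, with 431 counts in all, and at 0 in every KHOS library, which is at least 143-fold higher relative to library totals against a floor of 3 counts over the group (FDR 3.58e-07). It passed the filter through HOS-MNNG alone, so this call is a description. PRAME was lower in HOS-MNNG, at 128, 151 and 156 TPM against 214, 212 and 211 TPM (log2 fold change -0.74, SE 0.07, FDR 5.88e-06). The libraries did not overlap for either gene, and SSX2IP did not pass the test (log2 fold change 0.08, SE 0.08, FDR 0.381). With over 1 in 2 genes called, these calls describe the 2 cultures and do not single out the members.

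Uninduced sh908 cells were compared with parental A673, 3 libraries against 3, to see whether the derivative kept the parental levels. The edgeR test called 2388 of 15778 genes (15.1%) and 2 of 7 members tested, both lower in sh908 cells. On the TPM scale the median tested gene was itself 0.32 lower in sh908 cells on log2(TPM + 1) (difference -0.32, against 0.01 in the fit), so TPM values of this comparison read lower than the fitted changes. SSX3 was at 0.952, 0.944 and 0.749 TPM in parental cells and listed at 0 in all 3 uninduced sh908 libraries, with 48.3 and 0 counts, at least 10-fold lower relative to library totals against the same floor (FDR 0.0197). It passed the filter through the parental libraries alone, so this call is a description, and with no filter its FDR was 0.0165. SSX2IP fell from 28.7, 21.6 and 23.1 TPM to 9.20, 9.05 and 9.90 TPM, by 0.68 in the count fit (log2 fold change -0.68, SE 0.14, FDR 0.0262) and by 1.28 on log2(TPM + 1). SSX7, at 1.41, 0.469 and 0.791 TPM against 0 in every uninduced sh908 library, did not pass the filter in this fit and was at least 11.6-fold lower, with 55.8 and 0 counts, and with no filter its FDR was 0.0216. The SSX2 copies, at 1.44, 1.09 and 0.0466 TPM against 0.0673, 0.152 and 0.605 TPM, overlapped and were not called (log2 fold change -1.22, SE 1.04, FDR 0.451). PRAME, at 5.52, 4.40 and 4.83 against 3.86, 6.32 and 7.36 TPM, overlapped (log2 fold change 0.67, SE 0.26, FDR 0.125). Summed XAGE1 was at 320, 249 and 249 TPM in parental cells and at 169, 171 and 598 TPM in sh908 cells, with replicates 1 and 2 below all parental libraries and replicate 3 above them (log2 fold change 0.64, SE 0.34, FDR 0.230).

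The 2 calls were lost in several fits with 1 library left out, although the fitted changes hardly moved (SSX3 from -6.77 to -6.44, SSX2IP from -0.73 to -0.60). Without replicate 1, 2 or 3 of parental A673, between 2 and 8 genes of the whole table were called and 0 members, and without replicate 2 of the uninduced sh908 cells 266 of 16613 genes and 0 members. The loss thus went with few calls over all genes. Without replicate 3 of the uninduced cells, the library that stood apart, 10203 of 16379 genes (62.3%) and 6 members were called. SSX3, SSX7, SSX2IP and CTAGE8 were then lower and PRAME (0.69, SE 0.22, FDR 0.0146) and XAGE1A (1.42, SE 0.51, FDR 0.0489) higher. SSX3 and SSX7 passed the filter through the parental libraries alone, so their calls are a description. XAGE1B, whose split from XAGE1A is uncertain, was not called in this edgeR fit (log2 fold change 0.04, SE 0.12, FDR 0.803). Neither SSX3 nor SSX2IP overlapped between the groups in any library, but how many of all genes did so was not counted. For SSX3 all uninduced sh908 libraries were listed at 0. For SSX2IP the levels are read on TPM, where the median tested gene was also lower.

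Induction of the hairpin was tested on 3 libraries with against 3 without doxycycline. The edgeR test called 0 of 14252 genes (0%) and 0 of 4 members, with 94 genes and 0 members at an unadjusted p under 0.05, and DESeq2 called 2 genes, neither of them a member, with 153 genes at an unadjusted p under 0.05. PRAME was at 1.65, 3.91 and 4.81 TPM in induced and 3.86, 6.32 and 7.36 TPM in uninduced libraries, lower in each pair of same-numbered libraries although the groups overlapped (log2 fold change -0.75, SE 0.4, FDR 1.0). Same-numbered libraries of the groups varied together, and with the replicate number as a block 73 genes (0.512%) and again 0 of 4 members were called. PRAME then had a log2 fold change of -0.78 by edgeR (SE 0.2, FDR 0.136). Summed XAGE1 was at 187, 160 and 389 TPM in induced and 169, 171 and 598 TPM in uninduced libraries (log2 fold change -0.28, SE 0.39, FDR 1.0), high in replicate 3 of both groups. Within each group, though not across them, this was the library in which KCNN1 was lowest. The part of replicate 3 in these values was not tested beyond leaving it out of 1 group at a time. That gave 0 members called and 0 of all genes, 14338 tested without the uninduced library and 14350 without the induced one. SSX2IP was at 9.52, 9.18 and 11 TPM in induced and 9.20, 9.05 and 9.90 TPM in uninduced libraries (log2 fold change -0.02, SE 0.17, FDR 1.0). SSX7 was at 0 without doxycycline and at 0.101, 0.126 and 0.165 TPM with it, levels of a few counts that did not pass the filter. The induced and parental comparisons share the uninduced libraries.

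**Figure D5:**
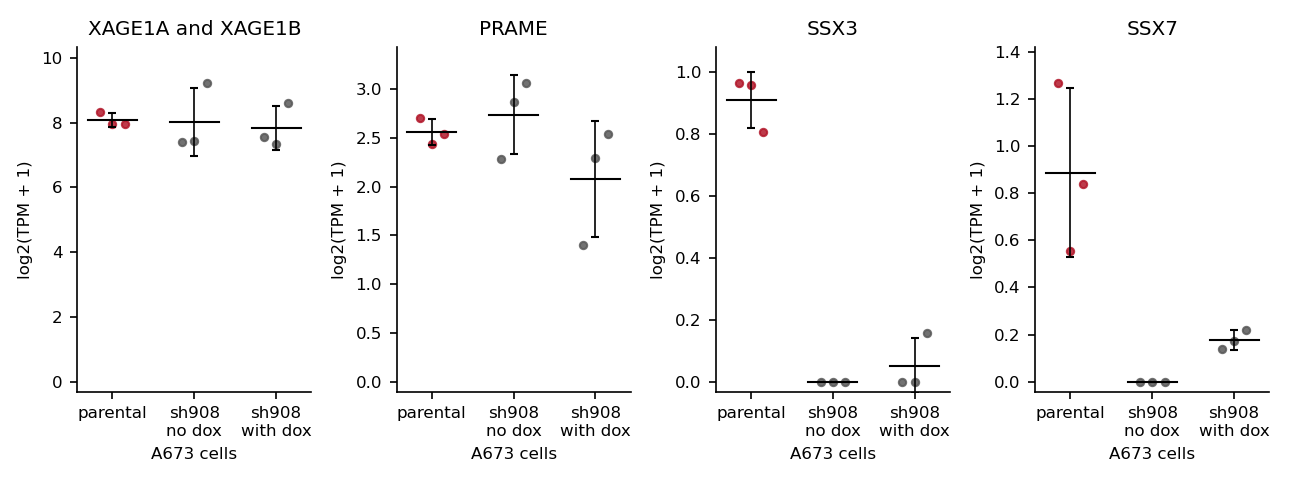
Level in parental A673 cells and in sh908 cells without and with doxycycline (dox) as log2(TPM + 1), 1 panel each for summed XAGE1, PRAME, SSX3 and SSX7, with separate y axes; points are libraries, lines are means and error bars SD (n = 3). SSX3 and SSX7 are at 0 in all sh908 libraries without doxycycline, and XAGE1 has 1 high library in each sh908 group.

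Genes of other kinds give the setting. Of 35 further cancer-testis genes outside these families, 13 passed the filter between the tumour types, 5 were called higher and 1 lower in Ewing sarcoma, where 14.4% of all genes were called, with a median log2 fold change of 1.27 against -0.06 over all genes. The 5 were below 1 TPM in every osteosarcoma line and the 1 in every Ewing sarcoma line. They may have passed the filter through the group where they were high, so these calls and the median are a description. LIPI, a phospholipase gene, was at 30.1 to 201 TPM in the Ewing sarcoma lines and 0.0640 to 0.622 TPM in osteosarcoma (log2 fold change 9.06, SE 0.74, FDR 2.38e-05). SYCP1, a protein of the synaptonemal complex of meiosis, was at 0.0372 to 558 TPM against 0 to 0.251 TPM (11.96, SE 2.65, FDR 0.0100). CTCFL, a germ cell paralogue of the insulator factor CTCF, rose by 6.9 (SE 1.68, FDR 0.0158) and ACTL8 by 4.55 (SE 0.97, FDR 0.00826), while LDHC, the lactate dehydrogenase of sperm, had a log2 fold change of -3.47 (SE 0.91, FDR 0.0219). By the permutation test neither SYCP1 (adjusted p = 0.137), which reached 1 TPM in 4 of the 7 Ewing sarcoma lines, nor LDHC (adjusted p = 0.127) was called. CTCFL was at 83.5 TPM in TC71 and had a median of 0.819 TPM over the Ewing sarcoma lines. Of 12 type II MAGE genes, the broadly transcribed relatives of the MAGEA to MAGEC genes, 10 were tested and 0 called (median 0.02), and none had an adjusted permutation p under 0.05.

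Of 26 regulators of DNA methylation and chromatin, 25 were tested and 4 were called higher and 0 lower in Ewing sarcoma, with a median of 0.45, where 14.4% of all genes tested were called. The permutation test called 6 of 25 higher and 0 lower, where 12% of all genes were called. Called by edgeR were DNMT3A, a de novo DNA methyltransferase (25.4 to 73.2 TPM against 3.16 to 13 TPM, log2 fold change 2.15, SE 0.26, FDR 2.74e-04), EZH2, the Polycomb methyltransferase (96.4 to 335 against 27.9 to 58.9 TPM, 1.84, SE 0.34, FDR 0.00359), TET1, which oxidises methylated cytosine (1.67 to 7.05 against 0.419 to 2.14 TPM, 2.08, SE 0.49, FDR 0.0141), and CTCFL. The maintenance methyltransferase DNMT1 was at 97.5 to 183 TPM against 80.6 to 228 TPM (log2 fold change -0.11, SE 0.27, FDR 0.825). None of these lists had a gene called with doxycycline. Their part in the levels of the cancer-testis genes was not tested.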

How the data were processed

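Poly(A) RNA of 45 cell line libraries was measured. Per the file headers, the authors deposited 1 table per library of 177816 RefSeq transcripts with estimated counts (expected counts, not scaled for depth) and TPM values (made by the authors from counts, transcript length and depth). The submitters' processing notes name fastp 0.19.5, kallisto 0.46.2, hg38 and GRCh38.p14, with no role or order given, and whether strand was used is not given in the sources used here.

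Transcripts were joined to genes by accession through RefSeq of GRCh38.p14 (95.6% matched). Those without a gene held 0.915% to 1.598% of the counts and were not used. Counts and TPM were summed per gene, and counts were rounded. edgeR 4.0.16 (limma 3.58.1, R 4.3.3; filterByExpr, TMM, robust quasi-likelihood) was fitted on all genes, with Benjamini-Hochberg adjustment and FDR under 0.05, on line sums for the tumour types and on libraries otherwise. Exact permutation tests used a pseudocount of 1 TPM. DESeq2 1.42.0 was an alternative. The tests were checked on simulated data. Python 3.11.15, numpy 2.4.6, pandas 2.3.3 and matplotlib 3.10.9 were used.

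Groups came from the labels. Members and lists were chosen with earlier results of these data known. Named with values were PRAME, FATE1, the GAGE sum, SSX1, MAGEA3, MAGEA4, CTAG1B, CTAG2, MAGEC1, MAGEC2, XAGE1, PAGE5, any member of at least 10 TPM in a line, any member called, and of other lists at most 6 called genes, of which 1 is not reported here. Others named, among them SSX7 between parental and sh908 cells, XAGE2, MAGEA10 and further SSX and MAGEB genes, were chosen after their values were seen. Same-numbered libraries with and without doxycycline had correlated deviations from their group means (Pearson r of 0.683, 0.582 and 0.881 over genes), so by the rule used, over 0.1 in every pair, the numbers were taken as pairs. Libraries 1 and 2 also correlated across numbers (0.517 and 0.608), so the pattern is mainly that of replicate 3 standing apart.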

Additional observations from a re-analysis of the deposited data

Results flagged for a closer look

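Several members had 1 line far from the others of its tumour type, on log2(mean TPM + 1) by Dixon's criterion at 95%. Of 35 groups of lines checked, 17 were marked. Chance marks about 1 in 20 for normally distributed values, which is no reference here, since most lines were at or near 0 and members share lines and reads. Among the osteosarcoma lines, U2OS stood apart in 7, namely MAGEA4 (205 TPM), MAGEA8 (42.7 TPM), MAGEA11 (32.8 TPM), MAGEC1 (46.2 TPM), PAGE2 (478 TPM), PAGE2B (303 TPM) and XAGE5 (27.8 TPM). SAOS2 stood apart in CTAG2 (210 TPM), MAGEC2 (60.5 TPM), MAGEA9B (35.3 TPM), MAGEA2 (43.8 TPM) and MAGEA2B (117 TPM). Among the Ewing sarcoma lines, SKES1 stood apart in all 5 genes of the block from MAGEA3 to MAGEA6, with MAGEA3 at 62.0 TPM, MAGEA6 at 23.3 TPM, MAGEA12 at 26.5 TPM, MAGEA2 at 11 TPM and MAGEA2B at 39.6 TPM. The split between copies of a pair is uncertain.

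Transcripts that the choice of members left out also had signal. The pseudogene SSX6P was at 13.2 TPM in EW3, 6.65 TPM in MHHES1 and 5.48 TPM in SKES1. The antisense RNA MAGEA4-AS1 was at 24.4 TPM in U2OS, the line with MAGEA4 at 205 TPM, and reads of the pair could not be told apart if strand was not used. The divergent transcript MAGEA3-DT was at 7.51 TPM in U2OS and 7.35 TPM in SAOS2.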

How the results depend on the processing

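Counts of members called moved with the processing, and apart from effects of the filter the cause was not tested. Between the tumour types, where edgeR called 2, the count was 6 with HOS-MNNG and KHOS as 1 line (SSX2IP and the SSX1 to SSX4 and SSX7 units; 12.4% of all genes), 15 with no filter (10.5%), 9 without SAOS2 and U2OS (13.1%), and 0 to 7 with 1 line or 1 replicate number left out (10.6% to 14.2%). With libraries as samples and a replicate block it was 12 (70.4%), but libraries of a line are not replicates of a tumour type. The permutation test called 3, against 0 over all genes with a TPM above 0 (5.21%), 1 without SAOS2 and U2OS, 2 with all near-identical pairs summed (chosen after the data were seen, XAGE1 no longer called), and 0 to 6 with 1 line left out (8.17% to 10.7%). For uninduced sh908 against parental cells, 2 were called, 0 with a replicate block (2.02% of all genes, and same-numbered libraries correlated at 0.0455, 0.0868 and 0.25, so they share only a number) and 0 to 6 with 1 library left out (0.0125% to 62.3%). For HOS-MNNG against KHOS, 2 were called (54.6% of all genes) and 4 with no filter (33%, MAGEA3 and MAGEA6 added). The count was 2 with a replicate block (54.3%) and 2 to 3 with 1 library left out (46.6% to 52.6%). With doxycycline 0 members were called in every alternative, the replicate block included. Few genes of any kind were called there, 0% in the fit reported and without replicate 3 of either group and 0.512% with the block, so these counts do not single out the members.

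Directions turned for some values, none of them called in the fit reported. With 1 line left out, PRAME ranged from -0.55 to 0.09 on log2 fold change and from -0.67 to 0.60 on log2 TPM, and XAGE2 from -0.15 to 6.45 (the last without U2OS, where it was called at an FDR of 0.00276 by edgeR, and -0.15 with HOS-MNNG and KHOS as 1 line). U2OS was the line with the highest XAGE2, so that call restates which line was left out and is a description. With doxycycline and 1 library left out, SSX2IP ranged from -0.08 to 0.04, XAGE1A from -0.72 to 0.06 and XAGE1B from -0.51 to 0.30. Of 349 values of named members under alternatives, 264 kept direction and side of the threshold. The 35 members detected became 36 at 0.5 TPM, 25 at 5 TPM and 34 to 35 with a replicate number left out. Levels under 1 TPM rest on few counts, and the split between copies cannot be resolved at any depth.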
